A study of Mus musculus with 6 samples.

Results

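The genes described here are 8 markers by which LSK cells of mouse bone marrow are divided into stem cells and progenitors: Kit, Ly6a, Flt3, Cd34, Cd48, Slamf1, Fgd5 and Ctnnal1. They were taken by symbol for their use in sorting schemes and reporter mice, with earlier results of these data known. They are 8 of 15845 genes in a table of RNA-seq counts. All 8 passed the filter on low counts, which 13149 genes passed in all. LSK cells lack the surface markers of mature blood lineages and carry Sca1 and c-Kit. In both groups the cells came from C57BL/6 mice of the genotype Mx1Cre; Jak2VF/VF, which are homozygous for VF, an activating Jak2 allele found in myeloproliferative neoplasms. One group received TP-3654, named in the series title as an inhibitor of the kinase Pim1, at 150 mg/kg/day for 6 weeks (3 libraries). The other received the vehicle, PBS, over the same 6 weeks (3 libraries). Mx1Cre is driven by an interferon-responsive promoter that is not restricted to stem cells, so the allele is not confined to LSK cells. Mice without the Jak2 allele were not analysed here, and the age of the mice is not given in the sources used here. The comparison asks how expression differs in LSK cells of this disease model when the drug is given.

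The LSK fraction is a mixture. In wild-type adult mice, long-term stem cells within it are Flt3-, CD34- or low, CD48- and CD150+, where CD150 is the product of Slamf1. As they become multipotent progenitors they gain CD34 and CD48, lose CD150, and the lymphoid-primed ones gain Flt3. Fgd5 and Ctnnal1 are not surface markers: Fgd5 is an intracellular exchange factor for the small GTPase Cdc42 and Ctnnal1 (alpha-catulin) an intracellular relative of alpha-catenin, and both are known as genes whose reporter alleles mark stem cells in mice. A count of RNA from sorted cells in bulk cannot tell fewer cells of a type from less RNA per cell.

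Library totals ran from 20582057 to 25315596 counts. Levels are given as CPM (a gene's share of the counts of its library, on a fixed scale and with TMM factors), and 3 counts, taken as the limit of detection, corresponded to 0.116 to 0.153 CPM. Tests are edgeR quasi-likelihood tests with p-values adjusted over all 13149 genes, and log2 fold changes are TP-3654 over vehicle. The gate genes were present in each library: Kit at 365 to 581 CPM and Ly6a at 40.0 to 69.2 CPM. The lineage marker genes Cd3e, Cd8a and Ly6g were too low to pass the filter. Markers of myeloid progenitors (6 genes: Mpo, Elane, Prtn3, Ctsg, Cebpa and Ms4a3) summed to 2214 to 7381 CPM in the TP-3654 libraries and 10120 to 12905 CPM in the vehicle libraries. Markers of stem cells (8 genes, among them Hlf, Mecom, Procr, Mllt3, Meis1, Hoxb5 and Esam) summed to 516 to 572 CPM in the TP-3654 libraries and 270 to 343 CPM in the vehicle libraries. Markers of mature neutrophils and monocytes summed to 20.5 to 65.7 CPM in the TP-3654 libraries and 26.6 to 159 CPM in the vehicle libraries, with the highest value in vehicle replicate 1. At an unadjusted p under 0.05, 4 of the 6 myeloid progenitor genes were lower and 6 of the 8 stem cell genes higher. Of all genes tested, 17.1% were under it in either direction. Markers of mast cells and basophils summed to 292 to 542 CPM in the TP-3654 libraries and 554 to 671 CPM in the vehicle libraries. Markers of T and NK cells summed to 135 to 218 CPM in the TP-3654 libraries and 225 to 265 CPM in the vehicle libraries, nearly all of it Nkg7, while Cd3e, Cd3d, Cd3g and Cd8a had at most 4 counts in any library. Of 11 marker lists summed, these 4 (myeloid progenitors, stem cells, mast cells and basophils, and T and NK cells) did not overlap between the groups. The list for LSK cells, Kit and Ly6a, also did not, with 497 to 649 CPM in TP-3654 libraries and 405 to 444 CPM in vehicle libraries. The sums overlapped for mature neutrophils and monocytes, erythroid cells, megakaryocytes, B cells, endothelial and stromal cells, and plasmacytoid and dendritic cells. The part of these sums in the results below was not tested.

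None of the 8 genes passed the edgeR test, in which 0% of all genes tested passed. At an unadjusted p under 0.05, 3 of the 8 were higher in TP-3654 libraries (Fgd5, Flt3 and Kit) and 0 lower, where 2244 genes or 17.1% of all tested were under it in either direction. DESeq2 on the same counts called 2 of the 8, Fgd5 and Flt3, both higher, where it called 657 genes or 4.92% of all it tested. In 4 of the 8 (Kit, Flt3, Fgd5 and Ctnnal1) each TP-3654 library lay above each vehicle library, which held for 14.3% of all genes tested. In 1 of the 8 (Slamf1) each TP-3654 library lay below each vehicle library, which held for 11.6% of all genes tested. The median log2 fold change of the 8 was 0.32, beside 0.01 for all genes tested.

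**Figure D1:**
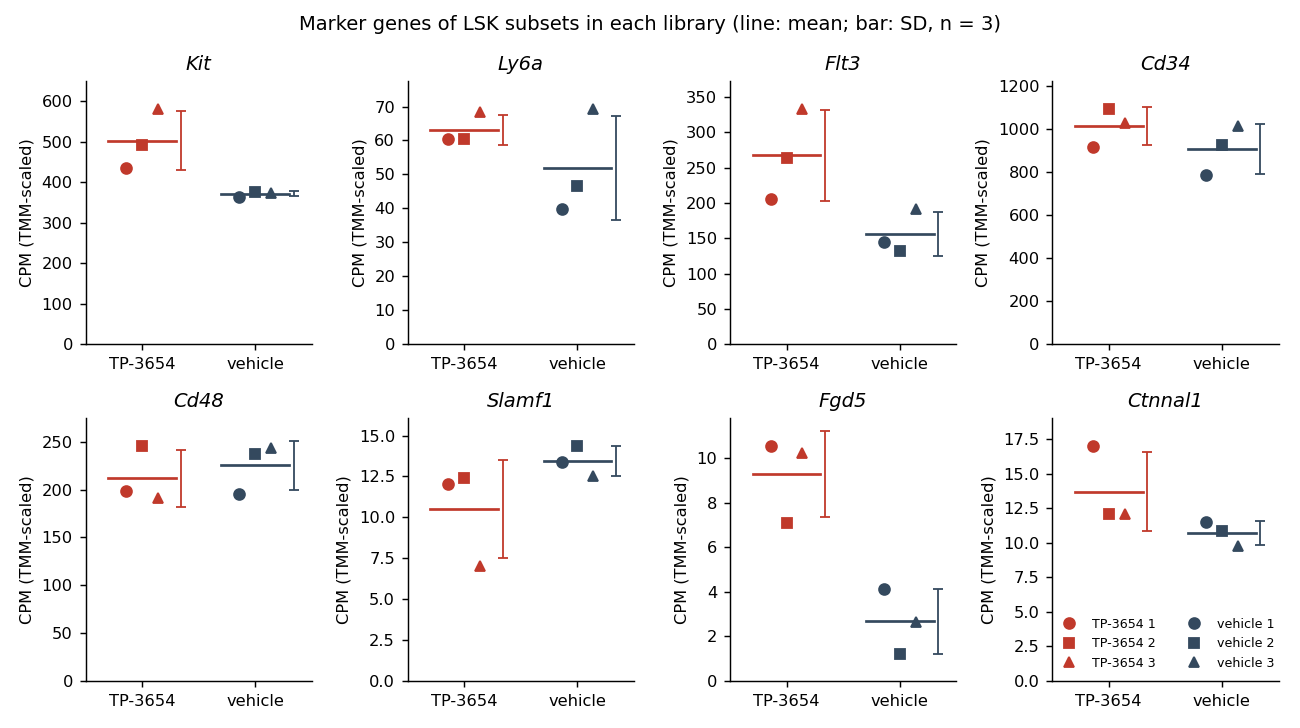
Level of each of the 8 genes in CPM (TMM-scaled) in the 3 TP-3654 libraries (red, left) and the 3 vehicle libraries (dark, right), with the mean as a line and the SD as a bar; symbols mark replicate numbers. By the fold change of edgeR the groups differ most for Fgd5 (3.46-fold). Its TP-3654 libraries lie between 7.08 and 10.5 CPM and its vehicle libraries between 1.22 and 4.14 CPM.

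Sequence near the transcription start is printed for the 3 genes with an unadjusted p under 0.05, all of them higher in TP-3654 libraries. The stretches lie before each annotated start in GRCm38.p6 and come from RefSeq, printed 5′ to 3′ on the gene's strand. Each holds 112 to 250 bases, since a window of 250 bases was shortened where GENCODE or RefSeq annotates an earlier start. Capitals mark a match to GGAAGT, a short motif of ETS factors, on either strand.

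Kit, chr5:75574737-75574915 (plus strand): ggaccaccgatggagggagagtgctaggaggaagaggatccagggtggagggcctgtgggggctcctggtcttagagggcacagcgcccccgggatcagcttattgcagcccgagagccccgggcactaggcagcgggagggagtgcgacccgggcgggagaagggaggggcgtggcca

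Flt3, chr5:147400490-147400739 (minus strand): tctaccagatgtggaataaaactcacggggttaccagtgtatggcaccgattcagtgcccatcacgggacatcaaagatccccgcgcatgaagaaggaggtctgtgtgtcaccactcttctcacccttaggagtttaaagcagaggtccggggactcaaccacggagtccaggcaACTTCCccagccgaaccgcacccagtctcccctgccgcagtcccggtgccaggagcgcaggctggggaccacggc

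Fgd5, chr6:91978715-91978826 (plus strand): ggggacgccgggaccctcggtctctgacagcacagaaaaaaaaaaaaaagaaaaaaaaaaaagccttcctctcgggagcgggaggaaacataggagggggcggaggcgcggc

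Both strands were searched for 5 motifs chosen after the values were seen: TTCNNNGAA of STAT factors, AGATAA of GATA factors, TGTGGT of RUNX factors, GGAAGT of ETS factors and the E-box CANNTG. The Flt3 stretch held 1 match to GGAAGT, on the opposite strand at base 176, a motif found in 19.99% of all 27025 promoters over a window of the same length, and 1 match to CANNTG, found in 66.0%. The Kit stretch held none of the 5, which were found in 5.33% (TTCNNNGAA) to 55.3% (CANNTG) of promoters over its window. The Fgd5 stretch held none either, against 3.33% to 39.5%. Stretches of Cd34, Slamf1 and Ctnnal1 were searched too and are not printed. Slamf1 held 1 match to CANNTG, found in 65.5% of promoters over its window, and none of the other motifs. Cd34 and Ctnnal1 held none, against 7.13% to 65.9% of promoters for Cd34 and 2.52% to 32.0% for Ctnnal1. A match describes letters in these windows only. Of the 8 genes, 7 had an entry in the RefSeq promoter table and Ly6a had none.

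Kit, the receptor for stem cell factor and the c-Kit of the LSK gate, lies on chromosome 5 (75574987 to 75656722). Its level was 436, 492 and 581 CPM in the TP-3654 libraries and 365, 377 and 375 CPM in the vehicle libraries. Each TP-3654 library lay above each vehicle library, and the TP-3654 libraries varied more, with a coefficient of variation of 14.5% against 1.72% in vehicle. Kit averaged 503 ± 73.0 CPM with TP-3654 and 372 ± 6.41 CPM with vehicle (SD, n = 3 each), 1.35-fold higher with a log2 fold change of 0.43 (SE 0.13, 95% interval 0.14 to 0.73) and an edgeR adjusted p of 0.166. Of its 31-base words, 0% occur at another annotated locus.

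Ly6a, on chromosome 15 (74994877 to 74998031), encodes Sca1, the other antigen of the gate. Its level was 60.5, 60.5 and 68.3 CPM in the TP-3654 libraries and 40.0, 46.7 and 69.2 CPM in the vehicle libraries. The groups overlapped, because vehicle replicate 3 was the highest of all 6 libraries. The means were 63.1 ± 4.49 CPM with TP-3654 and 52.0 ± 15.3 CPM with vehicle (SD, n = 3 each), a log2 fold change of 0.28 (SE 0.19, 95% interval -0.15 to 0.72; edgeR adjusted p = 0.464). It was 0.12 without vehicle replicate 1 and 0.54 without vehicle replicate 3. The gate selects on the proteins of Ly6a and Kit, not on their RNA.

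The Ly6a count is less certain than the others, since 31.9% of its 31-base words occur at another annotated locus: 21.9% in Ly6c1, 8.42% in Ly6i and 6.67% in Ly6c2. How reads were assigned among these genes is not given in the sources used here. Over the whole aligned coding sequence, 76.5% of bases are identical to Ly6a in Ly6c1, 83.6% in Ly6c2 and 86.4% in Ly6i. The shared sequence is visible in a stretch of 60 coding bases (bases 21 to 80 of each coding sequence, GENCODE annotation of GRCm38). This stretch was picked as the one most alike over these genes, and capitals mark bases that differ from Ly6a.

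Ly6a: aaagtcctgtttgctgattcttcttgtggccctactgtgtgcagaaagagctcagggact

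Ly6c1: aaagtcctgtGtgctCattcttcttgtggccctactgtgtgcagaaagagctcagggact

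Ly6c2: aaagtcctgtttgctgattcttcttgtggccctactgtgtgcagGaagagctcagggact

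Ly6i: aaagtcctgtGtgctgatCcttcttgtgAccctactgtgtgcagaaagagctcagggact

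Ly6c1 differs from Ly6a at 2 of the 60 bases, Ly6c2 at 1 and Ly6i at 3. The neighbours differed in the other direction: Ly6c2, a marker of monocytes and their progenitors, had 31, 65.5 and 20.6 CPM in TP-3654 libraries and 363, 109 and 83.2 CPM in vehicle libraries. Ly6c1 had 4.40, 9.56 and 6.29 CPM in TP-3654 libraries and 54.7, 15.1 and 10.6 CPM in vehicle libraries. Vehicle replicate 1 was far above the other libraries for both, and the groups did not overlap for either. Of 7 tested genes of the Ly6a cluster other than Ly6a itself, 4 were lower (Ly6c1, Ly6c2, Ly6e and Ly6i) and 1 higher (Ly6d) at an unadjusted p under 0.05, with a median log2 fold change of -0.74 beside 0.01 for all genes. Over all genes tested, 17.1% were under that p in either direction. In edgeR 0 of the 7 passed, and DESeq2 called 1, Ly6e, lower, where it called 4.92% of all it tested. The 5 genes under an unadjusted p of 0.05 became 2 when TP-3654 replicate 1 was left out. They became 3 when any of vehicle replicate 3, TP-3654 replicate 2 and TP-3654 replicate 3 was.

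Flt3, on chromosome 5 (147330741 to 147400489), is the receptor for Flt3 ligand and marks the multipotent progenitors within LSK cells. It had 205, 264 and 333 CPM in the TP-3654 libraries and 145, 132 and 191 CPM in the vehicle libraries. No library of one group lay within the other, though the lowest TP-3654 library (205) and the highest vehicle library (191) were close. The means were 267 ± 63.8 CPM with TP-3654 and 156 ± 31.1 CPM with vehicle (SD, n = 3 each), 1.71-fold higher with a log2 fold change of 0.78 (SE 0.20, 95% interval 0.32 to 1.23; edgeR adjusted p = 0.130). DESeq2 gave Flt3 an adjusted p of 0.0120. That call was lost without vehicle replicate 1 (0.122), vehicle replicate 2 (0.159), TP-3654 replicate 2 (0.0586) or TP-3654 replicate 3 (0.0612), in DESeq2 fits on 5 libraries chosen after the data were seen.

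Cd34, on chromosome 1 (194938821 to 194961292), encodes a sialomucin that is low on long-term stem cells and high on progenitors. Its level was 917, 1091 and 1026 CPM in the TP-3654 libraries and 783, 926 and 1011 CPM in the vehicle libraries, so the groups overlapped. The means were 1011 ± 87.6 CPM with TP-3654 and 907 ± 115 CPM with vehicle (SD, n = 3 each), a log2 fold change of 0.16 (SE 0.14, 95% interval -0.15 to 0.47; edgeR adjusted p = 0.555). Without vehicle replicate 1 it was 0.06 and without TP-3654 replicate 2 it was 0.10, while without vehicle replicate 3 it was 0.24. An antisense gene, Gm16897, overlaps exons of Cd34, and the strand setting of the counting is not given in the sources used here, so reads of the pair cannot be told apart.

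Within a library, the count ratio of Flt3 to Cd34 compares a marker of lymphoid-primed progenitors with one carried by most progenitors. Flt3 counts were 22.3%, 24.2% and 32.4% of Cd34 counts in the TP-3654 libraries and 18.5%, 14.3% and 18.9% in the vehicle libraries. The groups did not overlap, and the mean log2 ratio differed by 0.61. Flt3 counts were 47.0%, 53.7% and 57.3% of Kit counts in the TP-3654 libraries and 39.7%, 35.1% and 51.0% in the vehicle libraries. For Flt3 over Kit the groups overlapped, and the mean log2 ratio differed by 0.34. The log2 ratio of Flt3 to Slamf1 was 4.09, 4.41 and 5.56 in the TP-3654 libraries and 3.43, 3.20 and 3.93 in the vehicle libraries. Its mean differed by 1.17. Without TP-3654 replicate 3 that difference was 0.73. The groups of this ratio could not overlap. Each TP-3654 library lay above each vehicle library in Flt3 and below each in Slamf1. The ratio of Ly6a to Kit overlapped, with 13.9%, 12.3% and 11.8% in TP-3654 libraries and 11.0%, 12.4% and 18.5% in vehicle libraries.

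**Figure D2:**
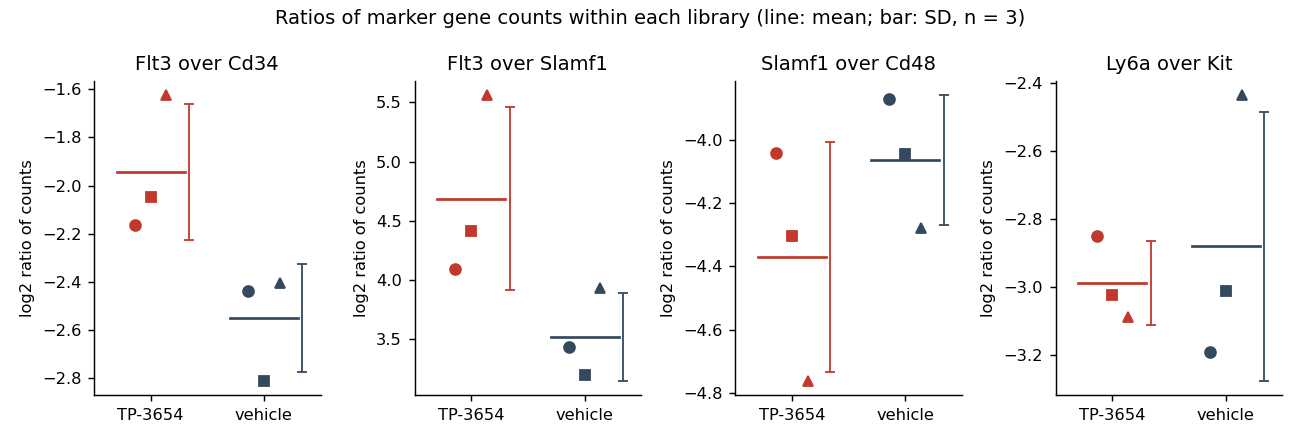
Log2 ratios of counts within each library for 4 pairs of genes in TP-3654 libraries (red, left) and vehicle libraries (dark, right), with the mean as a line, the SD as a bar and symbols for replicate numbers. Flt3 over Cd34 and Flt3 over Slamf1 are higher in each TP-3654 library, while Slamf1 over Cd48 and Ly6a over Kit overlap. For Flt3 over Slamf1 this follows from the separate levels of both genes.

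Cd48 and Slamf1 are the pair used in the SLAM scheme, in which CD48 marks progenitors and CD150 marks stem cells. They are neighbours on chromosome 1, Cd48 at 171681245 to 171705258 and Slamf1 at 171767131 to 171801184, with 61.9 kb between them. Cd48 had 198, 246 and 191 CPM in the TP-3654 libraries and 196, 237 and 244 CPM in the vehicle libraries, and the groups overlapped. Its means were 212 ± 29.6 CPM with TP-3654 and 225 ± 25.9 CPM with vehicle (SD, n = 3 each), a log2 fold change of -0.09 (SE 0.14, 95% interval -0.40 to 0.22; edgeR adjusted p = 0.745). Fits on 5 libraries put it between -0.21 (TP-3654 replicate 2 left out) and -0.03 (vehicle replicate 3 or TP-3654 replicate 3 left out).

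Slamf1 had 12.0, 12.4 and 7.05 CPM in the TP-3654 libraries and 13.4, 14.4 and 12.6 CPM in the vehicle libraries. Each TP-3654 library was below each vehicle library, but the highest TP-3654 value (12.4) lay just under the lowest vehicle value (12.6), and TP-3654 replicate 3 was far below the other 2. The means were 10.5 ± 2.99 CPM with TP-3654 and 13.4 ± 0.905 CPM with vehicle (SD, n = 3 each), a log2 fold change of -0.35 (SE 0.23, 95% interval -0.88 to 0.17; edgeR adjusted p = 0.447). Without TP-3654 replicate 3 the log2 fold change was -0.15. The ratio of Slamf1 to Cd48 counts was 6.07%, 5.06% and 3.69% in TP-3654 libraries and 6.84%, 6.07% and 5.15% in vehicle libraries, and the groups overlapped.

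Of 8 other tested genes of the SLAM family and its adaptors, 1 was higher at an unadjusted p under 0.05 and 0 were lower. That gene, Cd244a, encodes the receptor for CD48 and is used to divide progenitors. It had 52.8, 69.5 and 87.0 CPM in TP-3654 libraries and 39.6, 41.6 and 44.7 CPM in vehicle libraries, so each TP-3654 library was above each vehicle library, with a log2 fold change of 0.73 (SE 0.17; edgeR adjusted p = 0.105; DESeq2 adjusted p = 0.0119). In edgeR 0 of the 8 passed, and 17.1% of all genes tested were under an unadjusted p of 0.05 in either direction. The 1 gene under an unadjusted p of 0.05 became 2 without vehicle replicate 1, TP-3654 replicate 2 or TP-3654 replicate 3.

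Fgd5, on chromosome 6 (91978827 to 92076005), had the largest fold difference of the 8 genes. It had 10.5, 7.08 and 10.2 CPM in the TP-3654 libraries and 4.14, 1.22 and 2.66 CPM in the vehicle libraries. These rest on 228, 183 and 200 counts with TP-3654 and 105, 27 and 58 counts with vehicle, and the count of 27 has a 95% exact Poisson interval of 17.8 to 39.3, which covers counting error only. Each TP-3654 library was above each vehicle library. The means were 9.28 ± 1.91 CPM with TP-3654 and 2.67 ± 1.46 CPM with vehicle (SD, n = 3 each), 3.46-fold higher with a log2 fold change of 1.79 (SE 0.41, 95% interval 0.87 to 2.71) and an edgeR adjusted p of 0.0972. DESeq2 gave Fgd5 an adjusted p of 0.000733, and called it without any 1 of the 6 libraries (3.07e-05 to 0.0292). Fgd5 is also expressed in endothelial cells. The 8 endothelial and stromal markers summed to 136 to 169 CPM in the TP-3654 libraries and 156 to 173 CPM in the vehicle libraries, nearly all of it Pecam1, which blood cells express too. Cdh5, which defines endothelium, had at most 8 counts in any library. Of that list, Emcn was higher (log2 fold change 1.14) and Plvap lower (-1.27) at an unadjusted p under 0.05.

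Ctnnal1, on chromosome 4 (56810935 to 56865375), had 17.03, 12.1 and 12.1 CPM in the TP-3654 libraries and 11.5, 10.9 and 9.81 CPM in the vehicle libraries. The groups did not overlap, but the gap was small except for TP-3654 replicate 1. The means were 13.7 ± 2.86 CPM with TP-3654 and 10.7 ± 0.876 CPM with vehicle (SD, n = 3 each), a log2 fold change of 0.35 (SE 0.20, 95% interval -0.09 to 0.80; edgeR adjusted p = 0.379). Without TP-3654 replicate 1 it was 0.17. Fgd5 counts were 62.0%, 58.7% and 84.7% of Ctnnal1 counts in TP-3654 libraries and 35.8%, 11.2% and 27.1% in vehicle libraries, without overlap.

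**Figure D3:**
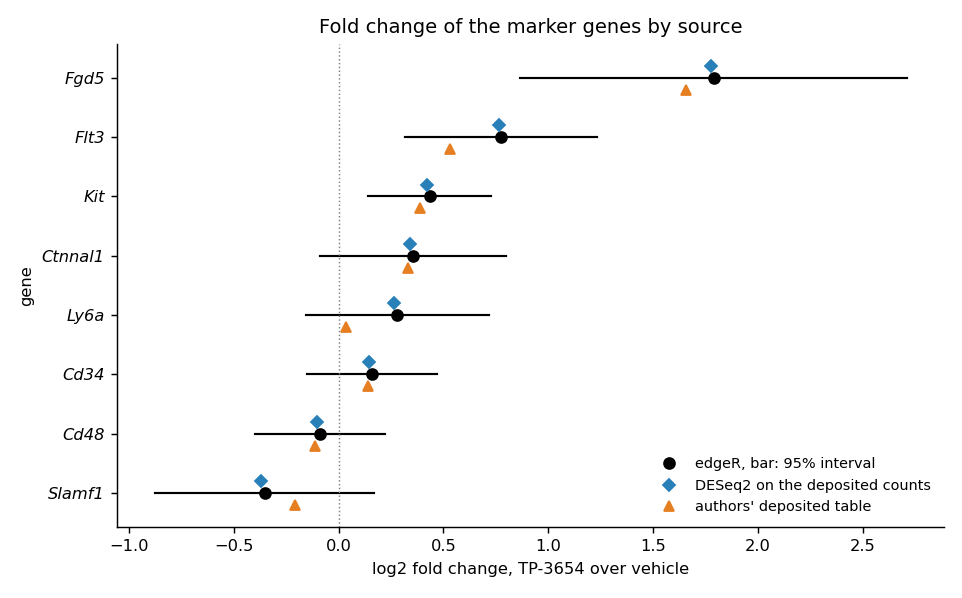
Log2 fold change of each gene (TP-3654 over vehicle) from edgeR with its 95% interval (black), from DESeq2 on the same counts (blue diamonds) and from the authors' deposited table (orange triangles). Fgd5 is at 1.79 and Slamf1 at -0.35 in edgeR, and the authors' value is nearer to 0 than that of edgeR for every gene except Cd48.

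**Figure D4:**
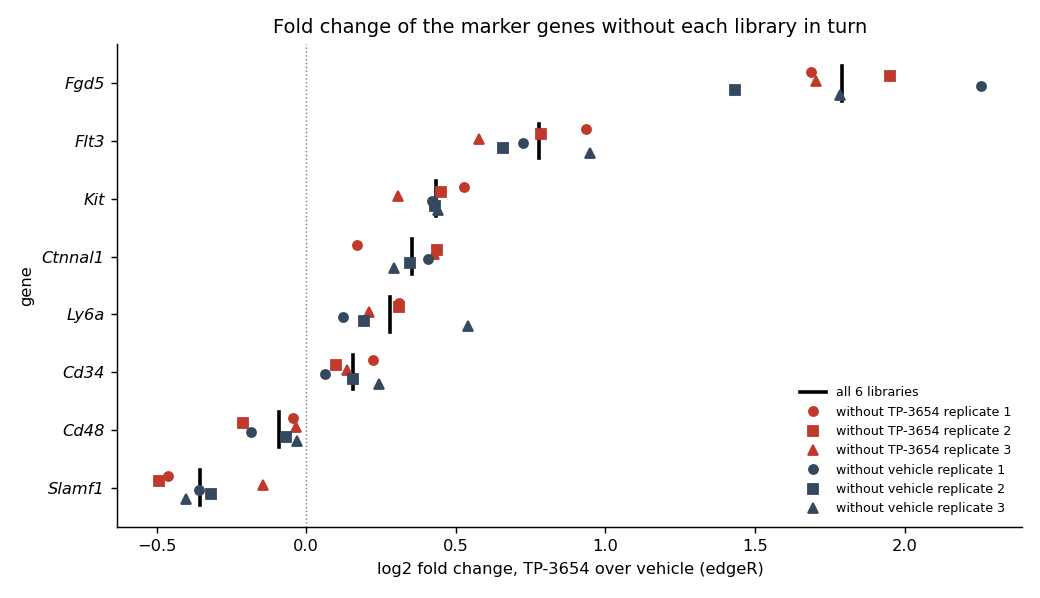
Log2 fold change of each gene in edgeR with all 6 libraries (black bar) and without each library in turn (red, TP-3654 libraries; dark, vehicle libraries; symbols for replicate numbers). All points of a gene lie on 1 side of 0; for Fgd5 they run from 1.43 to 2.26 and for Cd48 from -0.21 to -0.03.

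The authors' deposited table, a DESeq2 comparison of their own, called 2 of the 8 at an adjusted p under 0.05, Kit (log2 fold change 0.39, adjusted p 0.0194) and Fgd5 (1.66, 0.00226), where it called 5.32% of all genes with an adjusted p. In the authors' deposited table Flt3 was at 0.53 (adjusted p 0.152) and Ly6a at 0.04 (0.958). The means in the authors' deposited table were not those of the counts: the median ratio over genes was 0.879, and 33.3% of genes were within 0.9 to 1.1. Of the 13154 genes in the authors' table, 159 had no row among the deposited counts. Of genes tested here and present in both, 86.1% had a fold change of the same sign as in edgeR. Why the authors' table and the counts differ was not tested.

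Levels between genes can be compared only per length, here CPM per kb of the union of a gene's exons. In the TP-3654 libraries Cd48 was highest at 178, followed by Cd34 at 139, Kit at 56.4, Ly6a at 52.4 and Flt3 at 43.3. Ctnnal1 at 1.79, Slamf1 at 1.71 and Fgd5 at 1.48 were far lower. Kit, Ly6a and Flt3 overlapped with their neighbours in this order, as did Ctnnal1, Slamf1 and Fgd5. In the vehicle libraries the order was Cd48 at 190, Cd34 at 124, Ly6a at 43.1, Kit at 41.8, Flt3 at 25.3, Slamf1 at 2.18, Ctnnal1 at 1.40 and Fgd5 at 0.424. There only Ly6a and Kit overlapped. With the longest transcript as length, Cd34 (330 with TP-3654, 296 with vehicle) stood above Cd48 (179 with TP-3654, 190 with vehicle), and Kit stood above Ly6a in both groups.

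Other genes of the same pathways are given by list. Over all genes tested, 17.1% were under an unadjusted p of 0.05 in either direction, and DESeq2 called 4.92% of those it tested. Of 4 tested relatives and ligands of Kit and Flt3, 1 was higher and 1 lower at an unadjusted p under 0.05: Pdgfrb, a platelet-derived growth factor receptor (log2 fold change 0.89, edgeR adjusted p = 0.0875), and Csf1r, the receptor that marks monocyte and macrophage progenitors (-0.78, edgeR adjusted p = 0.194). DESeq2 called both. The Flt3 ligand Flt3l was at 27.0 ± 2.32 CPM with TP-3654 and 24.3 ± 4.39 CPM with vehicle (SD, n = 3 each), a log2 fold change of 0.15 (edgeR adjusted p = 0.636). The Kit ligand Kitl did not pass the filter. Of 16 adaptors that carry signals from Kit and Flt3, such as Grb2 and Shc1, 0 were under an unadjusted p of 0.05, with a median log2 fold change of 0.07. Of 6 tested genes of the Fgd family with Cdc42, Fgd1 (0.62) and Fgd3 (0.28) were higher and 0 lower. Without vehicle replicate 1 or TP-3654 replicate 3, 0 of these 6 were under it, and 1 was when vehicle replicate 2, TP-3654 replicate 2 or vehicle replicate 3 was left out. Of 2 tested relatives of Ctnnal1 in the alpha-catenin and vinculin family, and of the 1 tested relative of Cd34, Podxl, 0 were under it.

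Among 19 tested other genes used to divide LSK cells or mark stem cells, 8 were higher at an unadjusted p under 0.05 and 1 was lower, and the median log2 fold change was 0.36 beside 0.01 for all genes. Those higher included Tie1, an endothelial and stem cell receptor kinase (0.82), Procr, encoding the stem cell marker EPCR (0.95), Esam, an adhesion molecule of stem cells (0.71), Neo1 (1.69), Cd63 (0.73), Il7r, the interleukin-7 receptor of lymphoid progenitors (1.51), and Itga2b, the CD41 of megakaryocytes (0.36). Procr had 26.9, 22.4 and 21.0 CPM in TP-3654 libraries and 14.5, 8.20 and 13.6 CPM in vehicle libraries, and its groups did not overlap. Neo1 was low, at 4.35, 3.02 and 1.69 CPM in TP-3654 libraries and 0.906, 1.49 and 0.412 CPM in vehicle libraries. Il7r was low too, at 3.61, 3.79 and 2.15 CPM in TP-3654 libraries and 1.69, 0.766 and 0.871 CPM in vehicle libraries. In edgeR 0 of the 19 passed, while DESeq2 called 7, all higher, where it called 4.92% of all it tested. An unadjusted p under 0.05 was reached by 17.1% of all genes tested, in either direction. Of 6 gate markers of progenitors outside LSK cells, Fcgr2b (-0.96) and Csf1r were lower and Il7r was higher at that threshold, with a median of -0.77.

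**Figure D5:**
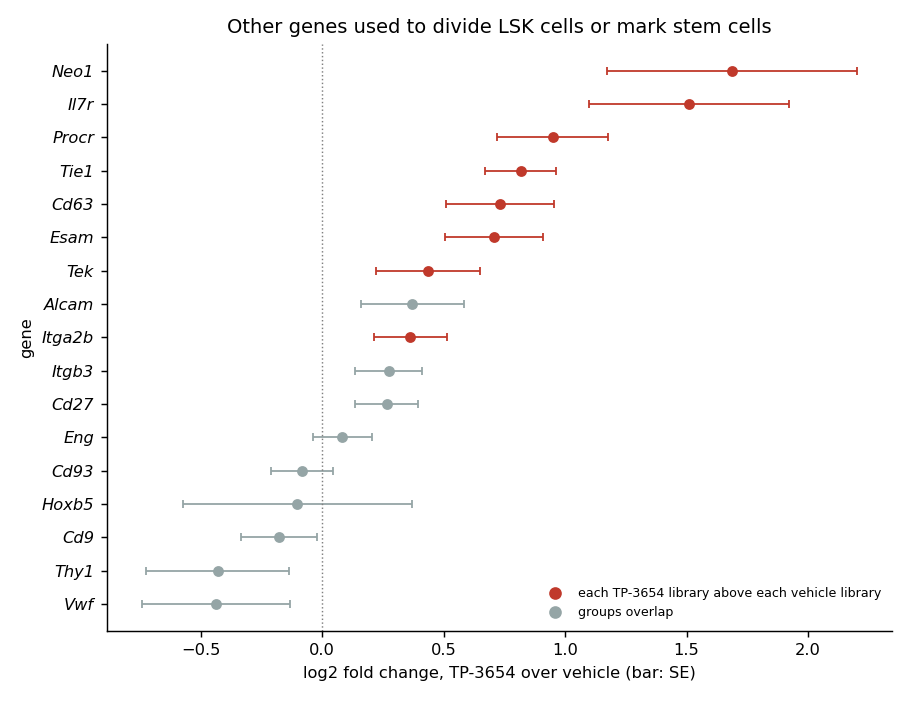
Log2 fold change with SE (TP-3654 over vehicle, edgeR) of 17 of the 19 tested other genes used to divide LSK cells or mark stem cells. Red marks genes with each TP-3654 library above each vehicle library and grey those whose groups overlap; Neo1 is at 1.69 and Procr at 0.95.

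Genes whose levels followed each of the 8 most closely over the 6 libraries were ranked by Pearson's r of log2(CPM + 0.5), among genes with a mean log2 CPM of at least 3. These are descriptions over 6 libraries that share 2 groups, so a gene that differs between groups matches others that do. Kit was nearest to Tesk1 (0.996) and Nr1d2 (0.995), Flt3 to Cul9 (0.998) and Syk (0.992), and Fgd5 to Csgalnact1 (0.995) and Armcx1 (0.995). Ly6a was nearest to Insl6 (0.991) and Krt18 (0.990), and Cd34 to Polr3d (0.986) and Marveld2 (0.977). Cd48 was nearest to Cyp20a1 (0.986) and Nufip1 (0.970), Slamf1 to Dolk (0.997) and Ak3 (0.996), and Ctnnal1 to Pex11a (0.984) and Tmem140 (0.970).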

How the data were processed

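Poly(A) RNA from sorted LSK bone marrow cells was sequenced in 6 libraries. The authors deposited whole-number counts per Entrez gene with no normalization, and the result of a comparison they made. Per the file headers, the deposited comparison holds a signal (the mean of counts divided by size factors), a log2 fold change and its error, a score (the Wald statistic) and p-values, raw and adjusted. Per the submitters' processing notes, the tools were HISAT2 2.1.0, SAMtools 1.9.0 and DESeq2, with builds mm10 and GRCm38. Which counter, annotation and strand setting were used is not given in the sources used here.

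From the counts, edgeR 4.0.16 in R 4.3.3 was run with TMM factors, filterByExpr (2696 genes removed, 0.0674% of counts), a robust quasi-likelihood fit and Benjamini-Hochberg adjustment over 13149 genes, called under 0.05. The SE is the size of the log2 fold change divided by the root of F. The series calls the libraries biological replicates, and p-values measure the spread between 3 libraries a group. Other settings tried were DESeq2 1.42.0, limma-voom (limma 3.58.1), also with sample weights, further scalings and filters, no robust option, a replicate block, genes with at most 1% of 31-base words shared between loci, and fits without each library. DESeq2 fits on 5 libraries were chosen after the data were seen. The edgeR step was tested on simulated data.

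The 8 genes and all gene lists were chosen with earlier results of these data known. The 8 are all named. From a list, genes with an unadjusted p under 0.05 may be named, or else up to 2 with the smallest p. By likeness, 2 genes are named for each of the 8. Of the list members, those named only for context (Flt3l, Kitl, Grb2, Shc1 and Podxl) were chosen after their values were seen. Places and promoters are from RefSeq GRCm38.p6. Some genes of the lists are not reported here by name.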

Additional observations from a re-analysis of the deposited data

How the results depend on the processing

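The direction of each of the 8 genes was kept under all alternatives run, and edgeR called 0 of them in each of its fits. DESeq2 called 2 of the 8, against 0 in the main test. On 5 libraries DESeq2 also called Kit without TP-3654 replicate 1 (adjusted p = 0.0117) and Ly6a without vehicle replicate 3 (adjusted p = 0.0268). For all genes, against 0 calls in edgeR, DESeq2 gave 657, limma-voom with sample weights 147, edgeR with no low-count filter 5, edgeR with the replicate block 3 and edgeR on genes with at most 1% of shared 31-base words 131. Without each library in turn edgeR gave 0 to 31. Leaving out TP-3654 replicate 3 gave the 31, TP-3654 replicate 2 gave 18 and TP-3654 replicate 1 gave 7. The cause was not tested. Replicate numbers are not stated to pair the libraries. Deviations from the group means of same-numbered libraries correlated at -0.01, -0.01 and 0.03 over genes, which cannot exclude a pairing. The fit on genes with little shared sequence held 5 of the 8 genes, without Ly6a, Cd34 and Slamf1. Of the 8, Fgd5 in vehicle rests on the fewest counts, at 27 to 105 a library, and its fold change has the largest SE (0.41). Its vehicle libraries differed by more than counting error.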
